A study of Mus musculus with 16 samples.

Results

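The G2M gene score is a per-cell value that the authors computed from a set of genes transcribed late in the cell cycle, and it was read here as deposited for every cell of 16 mouse tumors. Cells with a score above 0.1 (hereafter G2M-high cells) numbered 18683 of 163343, or 11.4%. They were kept apart from the 14466 cells that the deposited phase column called G2M at a score of 0.1 or below (hereafter low-score G2M calls). The cells fall into 15 annotated classes and 39 clusters, both taken from the same table.

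Cells of B78, an amelanotic melanoma line derived from B16, had been injected subcutaneously into male C57/BL6 mice of 8 to 11 weeks. The mutant lines carry a base edit of the mitochondrial genome that introduces a stop codon into mt-Nd5, a complex I subunit, and the percentage is the share of mitochondrial genomes edited (heteroplasmy). The groups were mt.11944 60% (edit at position 11944, 3 tumors), mt.12436 60% (edit at position 12436, 3 tumors), mt.12436 80% (the same edit at 80% heteroplasmy, 3 tumors) and WT (B78 without the edit, 7 tumors). Tumors were digested with collagenase, sorted for live cells and run on a droplet platform that reads the 3′ ends of transcripts.

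Tumors of a mutant group came from 1 edited cell population, so a p-value below measures the spread between tumors and not between independently edited lines. The table assigns 3 batches. Batch 1 holds the mt.11944 60% tumors and WT tumors 1 to 3, batch 2 the mt.12436 60% tumors and WT tumors 4, 5 and 7, and batch 3 the mt.12436 80% tumors and WT tumor 6.

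Each tumor had 6371 to 13448 cells and 54652952 to 131121046 unique molecular identifiers (UMIs, counted transcripts), with a median of 3130.5 to 7527.5 UMIs per cell. Of 160030 distinct barcodes, 3278 (2.05%) occurred in more than 1 library, and no pair of libraries shared more than 0.547% of the smaller one's barcodes. No cell in the table is called a doublet, although a doublet score is given for each. Class labels could not be set against marker genes, because per-gene counts were not analysed here. One library stood apart for fibroblasts: mt.11944 60% tumor 1 held 1944 of the 6283 cells of that class (30.9%), at a median of 966 UMIs per cell.

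Genes of the G2M set build the mitotic spindle, condense chromosomes and drive entry into and exit from mitosis, and they are transcribed from late S phase onward. Their shared repression outside that window depends on a promoter element called the cell cycle genes homology region (CHR), which the DREAM complex binds, and CCAAT boxes bound by NF-Y are common beside it. In tumors, such a score marks dividing cancer cells as well as dividing leukocytes, whereas mature neutrophils have left the cell cycle. A score of this kind is a mean over the set minus a mean over control genes of like expression, so it can be negative and has no unit.

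The table does not name the genes scored. The G2M list published with the Seurat package, written with mouse symbols, has 54 genes, of which 47 had a promoter in a RefSeq table of build GRCm38.p6. Promoters of 3 genes are printed to show the elements that genes of this set share, as the 150 bases 5′ of the start with TTTGAA and CCAAT on either strand in capitals. They were taken in the list's order from genes with both motifs in that window. Hmgb2 encodes a chromatin protein, Cdk1 the kinase that starts mitosis and Ube2c an enzyme that tags mitotic cyclins for destruction.
Hmgb2 (chr8:57511693-57511842, + strand): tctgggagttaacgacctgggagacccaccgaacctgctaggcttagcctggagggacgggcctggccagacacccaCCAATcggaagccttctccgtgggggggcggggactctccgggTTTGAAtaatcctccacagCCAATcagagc
Cdk1 (chr10:69352913-69353062, - strand): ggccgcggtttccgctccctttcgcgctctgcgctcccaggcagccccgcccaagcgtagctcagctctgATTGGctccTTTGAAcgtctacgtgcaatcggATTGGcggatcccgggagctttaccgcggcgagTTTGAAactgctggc
Ube2c (chr2:164769779-164769928, + strand): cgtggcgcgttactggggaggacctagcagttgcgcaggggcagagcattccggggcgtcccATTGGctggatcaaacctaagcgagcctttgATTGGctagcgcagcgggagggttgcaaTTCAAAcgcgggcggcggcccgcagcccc
Over the 250 bases before the start, TTTGAA on either strand occurred in 20 of the 47 list genes (42.6%) and in 4934 of all 27025 genes with a promoter (18.3%). CCAAT on either strand occurred in 36 of the 47 (76.6%) and in 10133 of all 27025 (37.5%). Both motifs were present in 17 of the 47 (36.2%) and in 1744 of all 27025 (6.45%). A match of letters is not a bound site.

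The score ran from -0.252 to 1.49 with a median of -0.0595, and 39029 cells (23.9%) were above 0. The deposited phase call followed from the 2 scores in all 163343 cells: G1 where both the S and the G2M score were below 0, otherwise the phase of the higher score. The call therefore needs no more than a score of 0, and it named 29103 cells (17.8%) G2M. Of these, 14637 were G2M-high, and the low-score calls made up 49.7%. Conversely, 4046 G2M-high cells (21.7%) were called S because their S score was higher still, and 0 were called G1. Pooled over classes, median depth was 12329 UMIs in G2M-high cells, 2191.5 UMIs in low-score G2M calls and 4497 UMIs in the other 130194 cells, but 61.2% of the G2M-high cells were cancer cells, the deepest class (median 12165 UMIs). Within cancer cells the medians were 18321 UMIs in G2M-high cells, 11910 in low-score G2M calls and 11072 in all cells that were not G2M-high. Within fibroblasts they were 1901.5, 1007 and 2193 UMIs. The last value of each class includes the low-score calls, unlike the pooled one. Cells near the threshold were not few: 2725 cells (14.6% of the G2M-high) scored above 0.1 and up to 0.15, and 5634 scored above 0.05 and up to 0.1.

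CD8 T cells had the largest G2M-high share of any class, 34.0% of 1804 cells, with a median score of 0.54 in those cells. Fibroblasts followed at 28.6% of 6283 cells, mast cells at 20.8% of 236, cancer cells at 18.6% of 61317, endothelial cells at 14.3% of 643, macrophages at 12.6% of 28004 and erythroid cells at 11.1% of 1134. CD4 T cells (6.48%), dendritic cells (DC, 5.74%), NK cells (3.70%) and the T cells not assigned further (3.43%) were lower. Neutrophils, taken as the background class, had 2.69% of 8853 cells at a median of 1372 UMIs, and B cells (1.31%, 1955.5 UMIs) and monocytes (0.505% of 42367 cells, 2834 UMIs) lay below them. The shares in B cells and monocytes are read as background. Basophils had 2 G2M-high cells of 22. Copy number calls labelled 29.1% of fibroblasts, 16.8% of endothelial cells and 14.4% of erythroid cells aneuploid. Without those cells the G2M-high shares were 26.3%, 12.7% and 12.2%. Whether these classes hold cells or doublets of another class was not tested, so their shares may not be those of the labelled cell types.

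Not every step in this order exceeded counting error. The exact binomial 95% intervals (Clopper-Pearson) of neighbors overlapped for mast cells (15.8 to 26.5%) and cancer cells (18.3 to 18.95%), for endothelial cells (11.7 to 17.3%), macrophages (12.2 to 12.95%) and erythroid cells (9.34 to 13.1%), for CD4 T cells (5.51 to 7.56%) and DC (5.05 to 6.48%), and for NK cells (3.09 to 4.39%) and unassigned T cells (2.71 to 4.26%). The intervals of unassigned T cells and of B cells (0.527 to 2.67%) also overlapped that of neutrophils (2.36 to 3.05%). These intervals cover counting error only, not the spread between tumors. By number rather than share, cancer cells supplied 61.2% of all G2M-high cells, macrophages 18.8%, fibroblasts 9.63% and CD8 T cells 3.28%.

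**Figure D1:**
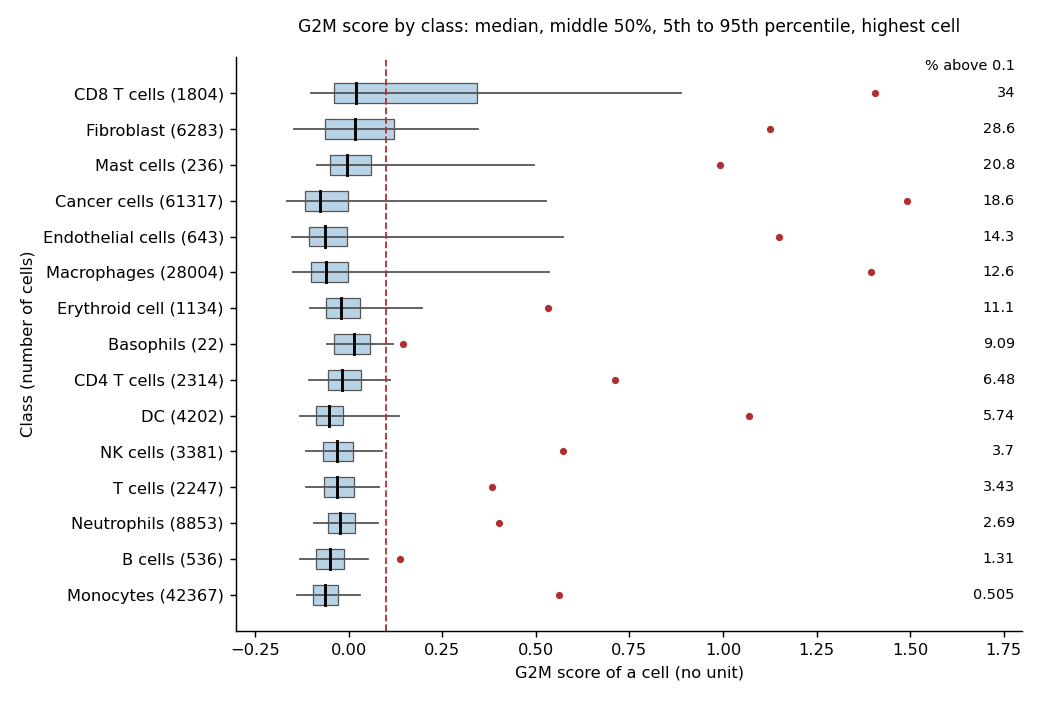
G2M score of single cells (x axis, no unit) in each of 15 annotated classes (y axis, number of cells in brackets). Boxes span the 25th to 75th percentile, the black bar is the median, thin lines run from the 5th to the 95th percentile, the red point is the highest cell and the dashed line is the 0.1 threshold. Only in CD8 T cells and fibroblasts does the box cross the threshold, and monocytes at the bottom have 0.505% of cells above it.

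Classes also differed in how far their G2M-high cells lay above the threshold. A score above 0.3 was reached by 76.3% of G2M-high CD8 T cells, 69.7% of G2M-high macrophages, 67.6% of G2M-high DC, 64.1% of G2M-high endothelial cells and 63.7% of G2M-high cancer cells. It was reached by 24.7% of G2M-high fibroblasts and 15.1% of G2M-high erythroid cells. In CD4 T cells, NK cells and neutrophils it was reached by 6%, 9.6% and 0.840%, and 73.3%, 56% and 76.9% of their G2M-high cells lay within 0.05 of the threshold. Of all cells of a class, 25.9% of CD8 T cells, 11.9% of cancer cells, 8.76% of macrophages, 7.08% of fibroblasts and 3.88% of DC scored above 0.3, against 0.0226% of neutrophils.

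The phase call ordered the classes differently. It named 40.1% of fibroblasts, 37.0% of CD8 T cells, 32.5% of CD4 T cells, 31.2% of neutrophils and 29.9% of erythroid cells G2M, but only 16.9% of cancer cells and 18.5% of macrophages. Of the cells so called, 84.0% of cancer cells, 61.4% of CD8 T cells, 61.4% of fibroblasts and 54.3% of macrophages were G2M-high. In neutrophils this was 8.50%, in monocytes 4.74% and in CD4 T cells 17.4%, so that most G2M calls of these classes carried a score of 0.1 or below.

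The score depended on depth in a direction that differed by class and by readout. Among macrophages, the G2M-high share was 5.89% below 1500 UMIs, 6.21% from 1500 to 3000, 11.97% from 3000 to 6000, 21.1% from 6000 to 12000 and 39.4% at 12000 UMIs and above. CD8 T cells were also higher in the deeper bins, with 21.4%, 18.98%, 39.05% and 80.3% in the first 4 of these bins, and 14 of 14 cells in the deepest. Among cancer cells, the share was 7.69% below 1500 UMIs, 8.52% from 1500 to 3000, 4.81% from 3000 to 6000 UMIs, 9.11% from 6000 to 12000 and 28.8% at 12000 and above. Neutrophils and monocytes went the other way, with 3.07% and 1.09% below 1500 UMIs and 1.32% and 0.315% from 3000 to 6000 UMIs.

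The share of G2M calls was lower in deeper neutrophils, at 33.1% below 1500 UMIs, 29.5% from 1500 to 3000 and 17.8% from 3000 to 6000. In monocytes it was 14.3% below 1500 UMIs and 5.06% from 6000 to 12000. Over all cells, 23.2% of G2M calls below 1500 UMIs were G2M-high, against 89.4% at 12000 UMIs and above. Among cells with at least 3000 UMIs, the G2M-high share was 49.1% in CD8 T cells, 27.01% in fibroblasts, 18.9% in cancer cells, 16.2% in macrophages and 1.22% in neutrophils, the same order as over all depths. The order of all classes did change: mast cells were highest, at 52.5% of 40 cells, and DC (7.97%), erythroid cells (7.83%) and CD4 T cells (6.75%) lay close together. Thinning cells to an equal number of UMIs needs per-gene counts and was not done here.

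**Figure D2:**
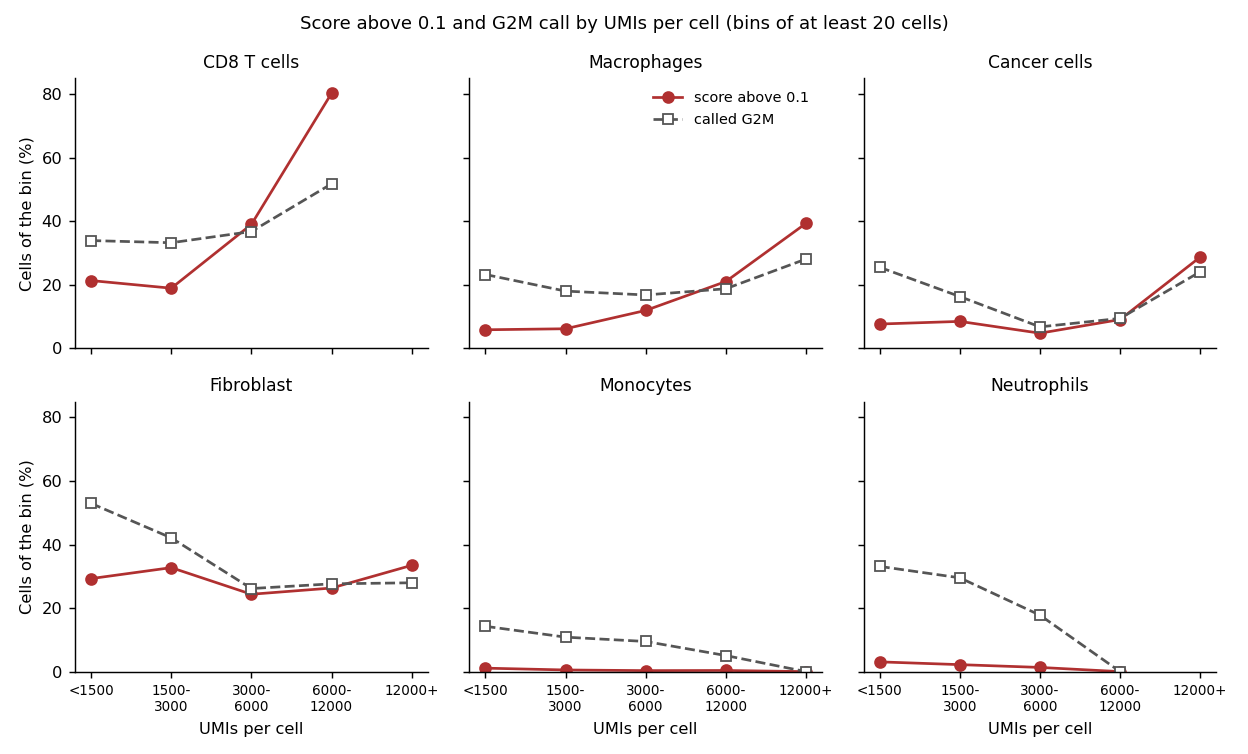
Percentage of cells (y axis) with a score above 0.1 (red circles) and called G2M (grey squares) by UMIs per cell (x axis, 5 bins) in 6 classes, with bins of under 20 cells left out. The red line climbs with depth in CD8 T cells (80.3% from 6000 to 12000 UMIs) and macrophages (39.4% at 12000 and above), while the grey line falls in neutrophils and monocytes.

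Within a tumor, G2M-high cells held more transcripts than the other cells of their class in CD8 T cells, cancer cells and macrophages. In cancer cells, the median depth averaged 21132 ± 5338 UMIs in G2M-high cells and 12827 ± 4350 UMIs in other cells (SD, n = 16 tumors), a mean log2 ratio of 0.75 ± 0.17 that was positive in 16 of 16 tumors (range 0.29 to 0.96). The log2 ratio averaged 0.86 ± 0.26 in CD8 T cells (4532 ± 1640 UMIs in G2M-high and 2471 ± 865 UMIs in other cells) and 0.71 ± 0.11 in macrophages (6609 ± 2188 and 4089 ± 1563 UMIs), also in 16 of 16 tumors each. For each of these 3 classes the exact two-sided sign-flip permutation test gave p = 3.05e-05, the smallest it can give, and an adjusted p of 4.07e-05 over the 4 classes in which each tumor had 10 or more cells of either kind. Fibroblasts were the fourth, with 3833 ± 1807 UMIs in G2M-high and 4452 ± 2001 UMIs in other cells, a log2 ratio of -0.22 ± 0.44 that was positive in 4 of 16 tumors (exact permutation p = 0.0611). That comparison passed without WT tumor 3, mt.11944 60% tumor 2 or mt.12436 80% tumor 2 (adjusted p = 0.0379, 0.0386 and 0.0115, sign-flip permutation test). Within fibroblast cluster 15, G2M-high cells had 3587 ± 1739 UMIs and other cells 3486 ± 1788 UMIs, a log2 ratio of 0.08 ± 0.41 that was positive in 11 of 16 tumors.

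**Figure D3:**
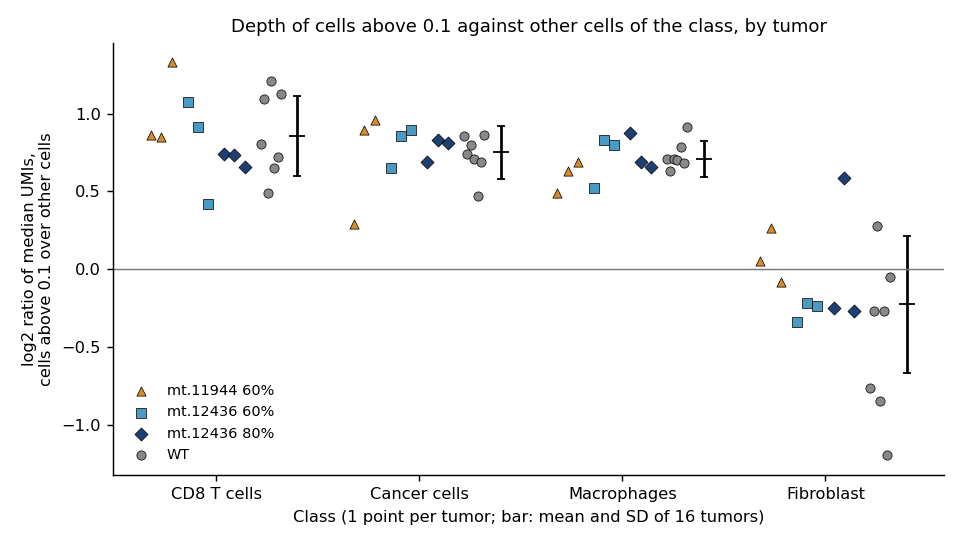
Log2 ratio of the median UMIs of G2M-high over other cells (y axis) in each of 16 tumors, by class (x axis) and tumor group (color and shape), with the mean and SD beside the points. All tumors lie above 0 in CD8 T cells, cancer cells and macrophages, and 4 of 16 do in fibroblasts.

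Other per-cell measures moved with the score. The median ribosomal share was higher in G2M-high than in other fibroblasts in 16 of 16 tumors, at a mean of 29.0% and 21.8% of UMIs. Within fibroblast cluster 15, which held 91.6% of the G2M-high fibroblasts, it was higher in only 5 of 16 tumors, at a mean of 30.1% in G2M-high and 32.1% in other cells. In macrophages, the median share of dissociation-response genes was lower in G2M-high cells in 16 of 16 tumors (3.03% and 3.46% of UMIs). Their median doublet score was higher in 15 of 16 (0.0222 and 0.00686). Within macrophage cluster 18, which held 62.3% of the G2M-high macrophages, the dissociation share was instead higher in 15 of 16 tumors (2.97% and 2.80%). The doublet score in that cluster was higher in 10 of 16. Counting only cells with a doublet score below 0.1 gave a G2M-high share of 11.8% in macrophages, 33.5% in CD8 T cells and 18.2% in cancer cells. The part of doublets in these scores was not tested.

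Across tumors, deeper libraries did not have larger G2M-high shares in a way that passed the adjusted threshold in any of 9 classes (Pearson and Spearman permutation tests, 16 tumors, batches pooled). The strongest relation was in cancer cells, r = -0.52 (permutation p = 0.04, adjusted p = 0.189) and rho = -0.56 (permutation p = 0.0277, adjusted p = 0.152). It was -0.43 without the 2 tumors farthest from the median depth, -0.69 within batch 1 and -0.18 within batch 2. In macrophages r was -0.38 (permutation p = 0.148, adjusted p = 0.332), and -0.66 without their 2 farthest tumors. Within batches 1 and 2 the macrophage r was -0.040 and 0.027. In neutrophils r was 0.49 (permutation p = 0.042, adjusted p = 0.189), with 0.72 within batch 1 and -0.52 within batch 2.

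At the level of clusters, the G2M-high cells were concentrated in a few. A G2M-high share of 65.3% or more was found in 6 clusters, 20 had 2.78% or less and 13 lay between, from 3.43% in cluster 21 to 35.6% in cluster 15. The 6 held 9.46% of all cells and 73.5% of all G2M-high cells. Clusters were made from expression, so these shares describe the partition and were not tested against each other. The share in the rest of the cells was 3.35%, while the G2M call named 12.04% of those cells.

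Cancer cells had 3 clusters with a high share among their 11. Cluster 14 had 99.5 ± 0.643% G2M-high cells (mean ± SD of tumor shares, 16 tumors), cluster 16 had 94.1 ± 3.27% (16 tumors) and cluster 27 had 92.9 ± 4.69% (the 12 tumors with at least 20 of its cells). Together they made up 16.9% of cancer cells and 86.9% of the G2M-high cancer cells. They differed in the S score: 30.9% of G2M-high cells of cluster 14 were called S, against 3.68% in cluster 16 and 22.1% in cluster 27, while the median score of G2M-high cells was 0.44 in clusters 14 and 16 and 0.28 in cluster 27. Cluster 11, chosen after its values were seen, lay between, with 23.7 ± 8.23% G2M-high cells, 64.6% of them called S and a median score of only 0.16. In the other 7 cancer clusters the pooled share was 0.474%.

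Macrophages repeated this arrangement with a pair of clusters out of 7. Cluster 25 had 89.4 ± 5.93% G2M-high cells, of which 0.282% were called S, and cluster 18 had 64.5 ± 5.41%, of which 30.2% were called S (16 tumors each). They held 92.6% of G2M-high macrophages, and the pooled share in the other 5 clusters was 1.11%, below that of neutrophils. Of those 5, the small cluster 36 (381 cells), named after its values were seen, had 17.3%. Copy number calls labelled 25.98% of the cells of cluster 36 aneuploid, against 0.446% of all macrophages. Its median doublet score was 0.0727, against 0.00495 over the class. Whether cluster 36 holds cells or doublets of another class was not tested, so its share may not be that of macrophages. Median scores of the G2M-high cells were 0.47 and 0.49 in clusters 25 and 18. Within cluster 18, G2M-high cells had 7499 ± 2695 UMIs and other cells 6762 ± 2387 UMIs, a log2 ratio of 0.15 ± 0.12, against 0.71 over the class.

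In CD8 T cells, cluster 33 had 98.2 ± 1.92% G2M-high cells (13 tumors with at least 20 cells) and held 31.0% of the class but 89.2% of its G2M-high cells. The other CD8 cluster, number 24, had 5.31% G2M-high cells, yet 24.8% of it was called G2M. In DC, cluster 32 had 32.04 ± 7.96% (14 tumors) and 83.0% of the G2M-high DC, and the 2 other DC clusters together had 1.151%. The highest monocyte cluster was number 6, at 0.564 ± 0.452%, and the highest neutrophil cluster was number 7, at 2.90 ± 1.30% (16 tumors each).

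Fibroblasts did not divide in this way. Cluster 15, with 73.7% of the class, had 39.4 ± 6.43% G2M-high cells (16 tumors) at a median of 1287 UMIs and 755 genes per cell. Of its 4628 cells, 1714 came from mt.11944 60% tumor 1 at a median of 935 UMIs. Without that tumor its median was 3186 UMIs and its pooled G2M-high share 39.3%, against 35.6% with it, and 13 of 16 tumors had a median of 2006 to 6225.5 UMIs. The other fibroblast cluster, number 23, had 8.51 ± 4.26% at a median of 6099 UMIs. In cluster 15 the G2M-high share was 30.7% below 1500 UMIs, 45.1% from 1500 to 3000, 36.7% from 3000 to 6000, 39.4% from 6000 to 12000 and 56.0% at 12000 and above, so its level was not confined to shallow cells. Scores above 0.3 made up 3.98% of the shallowest and 14.8% of the deepest of these bins, and 7.63% and 15.4% without that tumor. Copy number calls labelled 34.9% of G2M-high and 26.7% of other fibroblasts aneuploid, against 98.8% of G2M-high and 98.25% of other cancer cells and 0.853% of G2M-high and 0.388% of other macrophages. Without aneuploid cells the fibroblast share was 26.3%, and without mt.11944 60% tumor 1 it was 29.4%. By tumor, the aneuploid share of fibroblasts ran from 0.926% in mt.11944 60% tumor 1 to 83.5% in mt.12436 80% tumor 3. Leaving out aneuploid cells thus kept nearly all fibroblasts of mt.11944 60% tumor 1 and gave that tumor more weight in the pooled share.

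**Figure D4:**
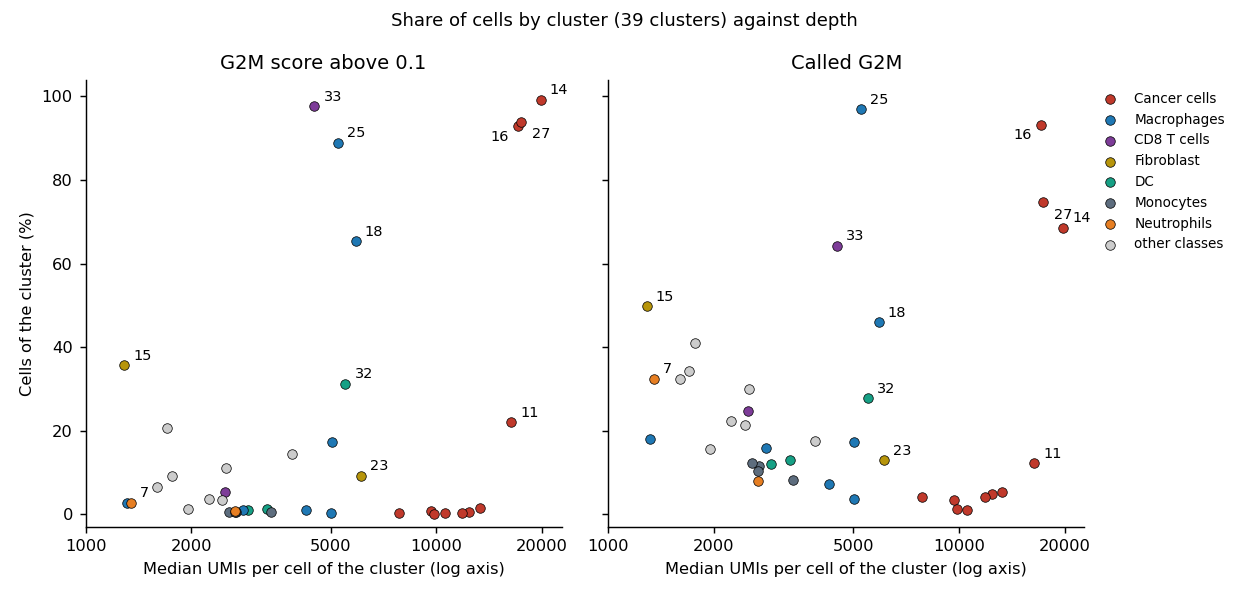
Percentage of cells (y axis) with a score above 0.1 (left) and called G2M (right) against median UMIs per cell on a log axis, with 1 point for each of 39 clusters, colored by class and numbered where the text names them. On the left 6 of the 39 clusters lie above 60%, 20 lie below 3% and 13 lie between, and on the right many shallow clusters lie well above 0, such as cluster 15 at 49.8%.

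The S score gave a second view of the G2M-high cells that the threshold did not use. It exceeded 0.1 in 76.8% of G2M-high CD8 T cells, 65.6% of G2M-high cancer cells, 60.6% of G2M-high DC and 49.99% of G2M-high macrophages. It did so in 35.7% of G2M-high fibroblasts, 18.7% of G2M-high CD4 T cells, 6.54% of G2M-high monocytes and 2.94% of G2M-high neutrophils. Classes also differed in this share over all their cells. It was 36.1% in CD8 T cells, 18.9% in cancer cells, 6.28% in DC and 13.3% in macrophages. In fibroblasts it was 18.9%, in CD4 T cells 6.87%, in monocytes 1.72% and in neutrophils 1.30%. Both scores rest on the same cells and depth, so this is a description.

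Whether the mutations or their heteroplasmy changed the share of G2M-high cells was compared over tumors, in the 9 classes that had 20 or more cells in each of the 16 tumors. No class passed an adjusted p under 0.05 between mutant and WT tumors (exact two-sided permutation test, 9 against 7 tumors, 0 of 9 classes called, 0%, and 0 at an unadjusted p under 0.05). The mean score gave the same count (0 of 9, 0%, 0 at an unadjusted p under 0.05), as did the share by cluster (0 of 24 clusters, 0%, 0 at an unadjusted p under 0.05).

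In cancer cells the G2M-high share was 7.24%, 21.1% and 18.8% in the mt.11944 60% tumors, 8.32%, 14.1% and 20.04% in the mt.12436 60% tumors and 24.3%, 21.1% and 22.7% in the mt.12436 80% tumors, against 10.9% to 23.8% with a median of 19.2% in WT tumors. The groups overlapped, and the lowest values were those of tumor 1 of both 60% groups. Mutant tumors averaged 17.5 ± 6.21% and WT tumors 18.1 ± 3.99% (SD, n = 9 and 7), a difference of -0.614 percentage points with an interval of -6.50 to 5.20 (exact permutation p = 0.823). The sign depended on single tumors: without mt.11944 60% tumor 1, mt.12436 60% tumor 1 or WT tumor 7 it was 0.670, 0.535 or 0.329. Tumors at 60% averaged 14.9 ± 6.04% (n = 6), -3.21 points from WT (-9.53 to 2.99, exact permutation p = 0.270). Tumors at 80% averaged 22.7 ± 1.63% (n = 3), 4.57 points from WT (-1.21 to 10.2, exact permutation p = 0.0917), and without WT tumor 7 the exact permutation p was 0.0238. Against WT tumor 6, the only WT tumor of their batch, the 80% tumors were 5.33 points higher on average.

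Macrophages were the class with the smallest p-value at 80% heteroplasmy. Their G2M-high share was 15.02%, 19.4% and 18.6% in the mt.12436 80% tumors, 13.5%, 13.6% and 11.3% in the mt.11944 60% tumors and 7.32%, 9.16% and 10.8% in the mt.12436 60% tumors, against 8.93% to 13.1% with a median of 11.4% in WT tumors. All 3 tumors at 80% lay above all 7 WT tumors and above all 6 tumors at 60%. The mean was 17.7 ± 2.32% at 80% and 11.3 ± 1.63% in WT, a difference of 6.36 points (3.43 to 9.33) with an exact permutation p of 0.00833, the smallest that 120 arrangements allow, and an adjusted p of 0.0750. That comparison called 0 of 9 classes (0%), with 1 at an unadjusted p under 0.05. Against the 60% tumors (10.9 ± 2.46%) the difference was 6.71 points (1.61 to 11.2, exact permutation p = 0.0119, the smallest of 84 arrangements, adjusted p = 0.107), again with 0 of 9 classes called (0%) and 1 at an unadjusted p under 0.05. The 80% tumors were all processed in batch 3 with 1 WT tumor, at 12.6%, so heteroplasmy and batch cannot be told apart beyond that tumor: the difference from it was 5.04 points (exact permutation p = 0.25, the smallest within that batch).

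Macrophages fell into different clusters by group. Clusters 18 and 25 together held 20.7%, 24.7% and 24.9% of macrophages in the 80% tumors and 7.98% to 17.6% in the 60% tumors, against 12.2% to 17.7% in WT tumors, so that the 80% tumors did not overlap either group. As these clusters were made from expression, those shares are given without a test. Within each of them the groups overlapped. The G2M-high share of cluster 18 was 67.4 ± 2.63% at 80% and 64.1 ± 6.97% in WT (exact permutation p = 0.483), and that of cluster 25 was 86.6 ± 2.36% at 80% and 89.4 ± 6.68% in WT (exact permutation p = 0.542). A score above 0.3 was found in 10.8%, 12.7% and 13.4% of macrophages at 80%, against 5.74% to 9.08% in WT. The median depth of macrophages was 3396, 2765 and 3090 UMIs in the 80% tumors, against 1963.5 to 5707 UMIs in WT. The groups overlapped only through WT tumor 3 (1963.5). All other WT tumors lay above the 80% tumors, from 3787 UMIs up, and WT tumor 6 of batch 3 had 5471. The median mitochondrial share of macrophages was 0.539%, 0.526% and 0.544% of UMIs in the 80% tumors, below the 0.667% to 0.810% of the 60% tumors and the 0.639% to 0.845% of WT tumors. The part of depth and of the mitochondrial share in the difference was not tested. With the threshold at 0.2 the difference from WT was 5.69 points and passed (adjusted p = 0.0375, exact permutation test). CD4 T cells passed at that threshold too, but on few cells. Of 2314 CD4 T cells over all tumors, 150 were G2M-high, with an upper quartile of 0.151 for their scores. Only 9 scored above 0.3. Over 9 classes, 1 class alone could not pass at the smallest p that 120 arrangements allow, 0.00833. The macrophage pass at 0.2 therefore depended on that of CD4 T cells. Among macrophages with at least 3000 UMIs, an alternative chosen after seeing the data, the difference was 12.02 points from WT and 13.8 points from the 60% tumors (adjusted p = 0.133 and 0.0476 over the 4 classes then tested, exact permutation test). At the smallest p of 84 arrangements, 0.0119, 1 class alone can pass over 4 classes but not over 9. The phase call gave a smaller difference from WT, 2.90 points (20.8 ± 1.502% at 80% and 17.9 ± 1.597% in WT, exact permutation p = 0.0167). Over all 9 mutant tumors macrophages had 13.2 ± 4.05%, 1.89 points from WT (-1.61 to 5.43, exact permutation p = 0.270).

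Between the edits at 60%, the macrophage share was lower in mt.12436 60% (9.09 ± 1.73%) than in mt.11944 60% tumors (12.8 ± 1.34%), with no overlap (exact permutation p = 0.1, the smallest that 3 against 3 allows). CD8 T cells showed the opposite order, at 46.2%, 37.2% and 40% in mt.12436 60% tumors and 31%, 31.7% and 24.1% in mt.11944 60% tumors, also without overlap (p = 0.1, exact permutation). This comparison called 0 of 9 classes (0%), with 0 at an unadjusted p under 0.05, and the edits also differ in batch. Relative to the WT tumors of its own batch, the CD8 share was 8.96 points higher in mt.12436 60% and 2.21 points lower in mt.11944 60% tumors, a difference of 11.2 points (exact permutation p = 0.115, adjusted p = 0.345).

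The remaining classes gave smaller or less even differences. The 60% tumors against WT called 0 of 9 classes (0%), with 0 at an unadjusted p under 0.05. DC had a G2M-high share of 6.44 ± 1.83% in mutant and 4.50 ± 2.00% in WT tumors, a difference of 1.94 points (-0.124 to 4.02, exact permutation p = 0.0662, adjusted p = 0.494). Fibroblasts had 27.4 ± 2.77% in mutant and 31.97 ± 7.59% in WT tumors, a difference of -4.52 points (-10.4 to 1.40, exact permutation p = 0.119), and -5.46 points within batches (exact permutation p = 0.0194, adjusted p = 0.174). The within-batch difference was 0.252 points for mt.11944 60% and -9.46 points for mt.12436 60%. For mt.12436 80% it was -8.89 points, against 1 WT tumor. The effects of the edits at 60% differed by -9.72 points (exact permutation p = 0.07, adjusted p = 0.315). WT fibroblasts of batch 1 lay below those of the other batches, at 25.4%, 27.5% and 21.4% in batch 1, 31.4%, 38% and 41.4% in batch 2 and 38.8% in batch 3. In CD4 T cells, 7 of 9 mutant tumors lay above all WT tumors (3.81% to 5.42%), but mt.11944 60% tumor 3 had 0 of 50 cells, which allows a share of up to 6%, and the means of 6.22 ± 2.85% and 4.92 ± 0.582% did not differ beyond their spread (exact permutation p = 0.274). Without that tumor the 60% groups together passed against WT in this class (adjusted p = 0.0114, exact permutation test). NK cells (3.56 ± 1.28% in mutant and 4.44 ± 1.72% in WT tumors), neutrophils (2.65 ± 1.29% and 2.78 ± 0.934%) and monocytes (0.441 ± 0.244% and 0.498 ± 0.377%) gave exact permutation p-values of 0.273, 0.825 and 0.718.

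**Figure D5:**
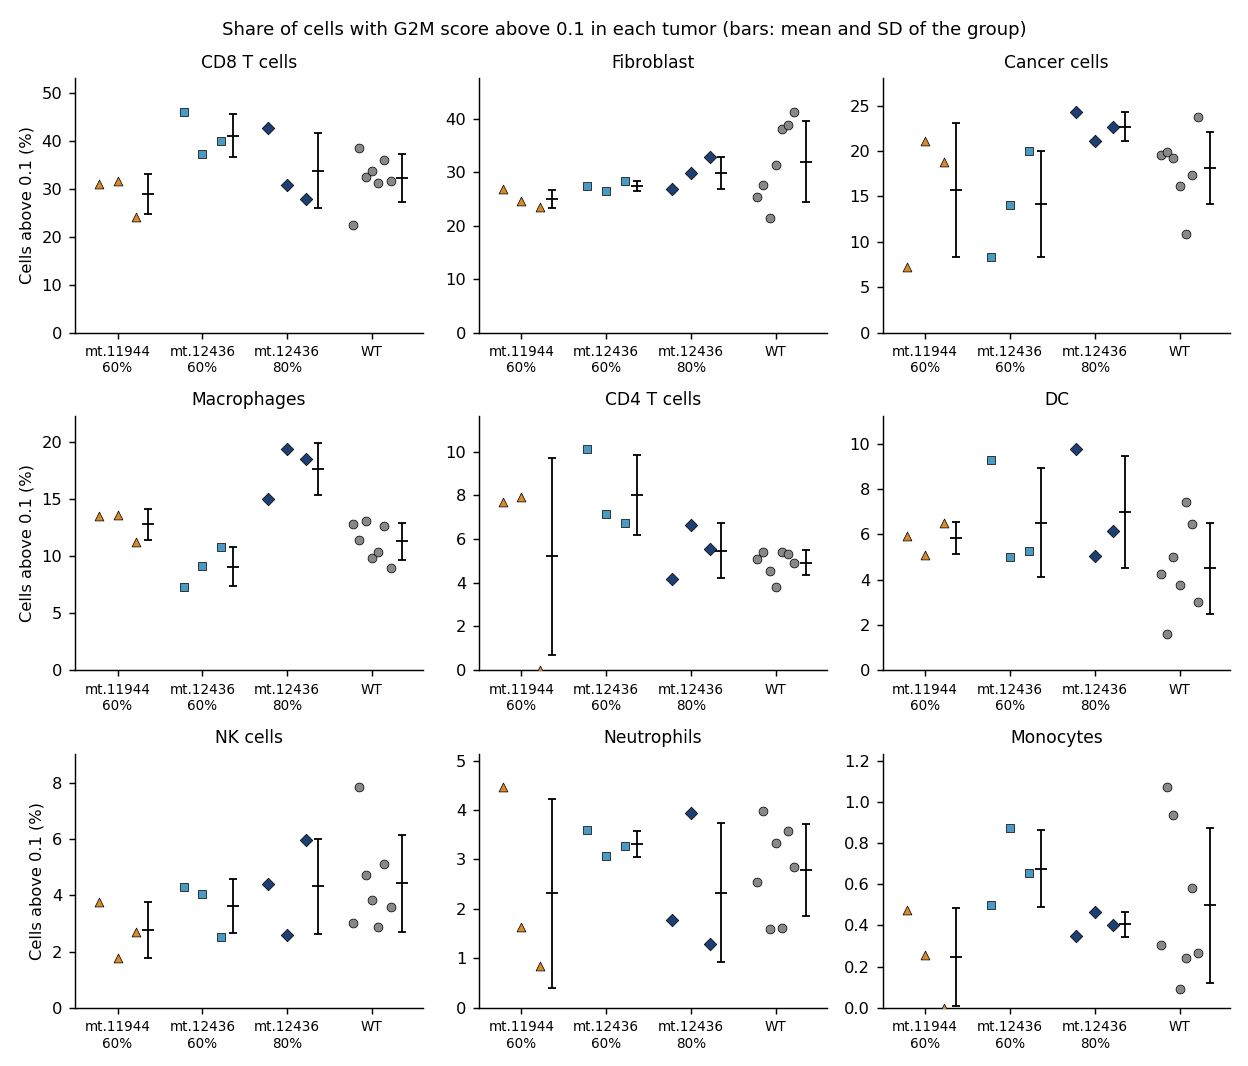
Share of cells with a score above 0.1 (y axis, percent) in each tumor, by class (panels) and tumor group (x axis), with the mean and SD of the group beside its points. In macrophages the 3 mt.12436 80% tumors (15.02% to 19.4%) lie above all 7 WT tumors (8.93% to 13.1%), and cancer cells overlap between these groups.

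Over all cells of a tumor, regardless of class, the G2M-high share was 15.7%, 14.7% and 15.9% at 80%, 9.20%, 13.3% and 13.6% in mt.11944 60% and 5.77%, 6.97% and 10.2% in mt.12436 60% tumors, against 6.99% to 13.4% in WT tumors. Mutant tumors averaged 11.7 ± 3.80% and WT tumors 11.2 ± 2.20%, which did not differ beyond their spread (0.490 points, -3.001 to 3.99, exact permutation p = 0.763). The 80% tumors averaged 15.4 ± 0.613%, 4.22 points above WT (1.26 to 7.43, exact permutation p = 0.0167), a comparison added after values were seen. Without any 1 of the 80% tumors the exact permutation p was 0.0556 to 0.0833, and against the WT tumor of batch 3 the difference was 5.402 points. The G2M call gave 16.95 ± 0.743% at 80% and 17.5 ± 0.736% in WT, a difference of -0.545 points (exact permutation p = 0.317). This overall share also depends on how many cells of each class a tumor yielded: of the G2M-high cells, cancer cells made up 75.2%, 66.4% and 70.6% at 80%, and 20.7% in mt.11944 60% tumor 1, where fibroblasts made up 44.1%.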

How the data were processed

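Single-cell RNA sequencing of 16 mouse tumors was read from 1 deposited table with a line per cell and no genes. The authors used Cell Ranger with build GRCm39, filtered cells (at least 500 genes, at most 37000 UMIs and 5% mitochondrial UMIs), joined libraries with Harmony, named classes with clustifyr and called aneuploid cells with CopyKAT. The deposited UMI and gene counts per cell are unnormalized counts from the authors. The percent of UMIs from mitochondrial, ribosomal and dissociation-response genes was computed per cell by the authors. The G2M score, S score and doublet score were computed by the authors, and their work was done in Seurat; the gene list and settings behind the cell cycle scores are not given in the sources used here.

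Tumors were grouped by their labels, and batches are those in the table. The value of a tumor was the percentage of its cells of a class scoring above 0.1. Groups were compared over tumors by exact two-sided permutation of the difference of means, with intervals by inversion of the test, and depth was compared within tumors by exact sign-flip permutation. Correlations used 100000 permutations. P-values were adjusted by Benjamini-Hochberg at 0.05. Clusters named are the 6 with the highest mean share over tumors with at least 20 of their cells and the highest of each other class with more than 1 cluster; other clusters were named after their values were seen. Members, lists and comparisons were chosen with earlier results of these data known. Alternatives covered the threshold, the phase call, depth, genes per cell, aneuploid cells, batch, replicate number, the minimum of cells and each tumor left out. Code was tested on simulated data. Python 3.11.15, numpy 2.4.6, pandas 2.3.3, scipy 1.17.1 and matplotlib 3.10.9 were used.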

Additional observations from a re-analysis of the deposited data

Results flagged for a closer look

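In neutrophils, WT tumor 3 had a mean score of -0.0465, against a median of -0.0130 over the 7 WT tumors, and its gap to the next tumor was 0.763 of the range. Chance alone sets such a tumor apart in about 1 in 20 groups, and 19 groups were examined.

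In monocytes, the G2M-high share of mt.12436 60% tumors was 0.477 points above the WT tumors of their batch, and that of mt.11944 60% tumors was 0.526 points below (-0.526) the WT tumors of theirs. The difference of these effects was 1.00 point (exact permutation p = 0.01, adjusted p = 0.0900). The effect of mt.12436 80% was -0.175 points, and it differed from that of mt.12436 60% by -0.652 points (exact permutation p = 0.0125, adjusted p = 0.112), in a comparison added after seeing the data. Neither passed the adjusted threshold, and all monocyte shares concerned lie below the neutrophil background of 2.69%.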

How the results depend on the processing

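Of 682 alternative values, 639 were unchanged, 22 changed direction, 15 were stronger and 6 weaker. An unchanged difference kept its direction and its side of the threshold, and a stronger or weaker one changed sides. For a count of classes or clusters passing, unchanged means an equal or similar count, and stronger a higher one. Some counts could not rise, as between the edits at 60%, where too few arrangements exist for a class to pass. The cause of a change was not tested. For cancer cells, all mutant minus WT was 0.987 points with the phase call, 4.36 points standardized over 4 bins of UMIs and 0.825 points as a difference of medians, and -1.83 to 0.670 points with each tumor left out. For 80% minus WT in cancer cells the range without each tumor was 3.36 to 5.52 points. For all cells, all mutant minus WT was -0.176 points within batches and -0.216 to 1.23 points without each tumor, and 80% minus WT was -0.545 points with the phase call. For macrophages, 60% minus WT was 0.239 points at a threshold of 0.05, 0.836 points with the phase call and -0.884 to 0.376 points without each tumor, and mt.12436 60% minus mt.11944 60% was 6.46 points with the phase call. The log2 depth ratio of fibroblasts was 0.0076 at a threshold of 0.2, 0.10 in cells of at least 3000 UMIs and 0.21 at a threshold of 0.3, and that of macrophages was -0.047 with the phase call. Counts of classes passing also moved. For 80% minus WT, 2 classes (CD4 T cells and macrophages) passed at a threshold of 0.2, against 0. The CD4 T cell result rests on few cells, and macrophages alone could not have passed there. For 80% minus 60%, 1 class (macrophages) passed in cells of at least 3000 UMIs, against 0. For 60% minus WT it was 0 to 1 without each tumor, and for the difference between the effects of the edits 0 to 2. Depth within tumors passed in 5 of 7 classes with the phase call, against 3 of 4. Depth across tumors passed in 3 classes with the phase call and in 1 class in cells of at least 3000 UMIs, against 0. The thresholds of 0.3 and 3000 UMIs were chosen after seeing the data.

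Tumor numbers recur between groups but mark no shared animal or day, and only 8 of 18 same-numbered pairs correlated above 0.1. A replicate block can use only numbers found in both mutant and WT groups. That leaves WT tumors 1 to 3, all of batch 1, so both mt.12436 groups were compared with WT tumors of another batch. Fibroblast shares of these WT tumors were 25.4%, 27.5% and 21.4%, against a mean of 31.97% over all WT tumors. With this block, 0 classes passed in each comparison of groups. For 80% minus WT and between the edits this count was fixed in advance, because the block leaves too few arrangements for any class to pass. In the other comparisons 1 class alone could not have passed. All mutant minus WT was 2.68 points in fibroblasts and -1.11 points over all cells. Over all cells, 80% minus WT was 2.62 points. The loss of the other WT tumors and the block were not tested apart. No within-batch value exists for 80% minus 60% or between the edits, which share no batch.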
